A study of Drosophila melanogaster with 3 samples.

Results

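The 250 optimal peaks of highest signal were studied among 5246 binding regions of CG7368 in Drosophila melanogaster. Chromatin immunoprecipitation followed by sequencing (ChIP-seq) was carried out on whole prepupae, with male and female animals pooled and age recorded as unknown. All animals came from a single transgenic line that stably makes the CG7368 product with green fluorescent protein at its C-terminal end, and an antibody against that tag pulled down the chromatin. There is 1 group, with 3 biological replicates and no second condition, and untagged animals are not analysed here. Optimal peaks are the regions left by the authors' procedure, which asks whether replicates rank regions alike. They were the highest regions of the list pooled from all 3 replicates. Some had no region in a replicate, so not every optimal peak was found again by itself. Members were selected on the signal that the authors' peak caller gave each region, from 573 to 3148 with a median of 750, so signal is a description and supports nothing further. The other 4996 optimal peaks had signals from 104.1 to 573. At the boundary the last members were CG1737 (574), an intronic peak of Raf (574) and CG42671 (573), and the first peaks outside were at egh (573), CG13204 (571) and sea (570), each named by its nearest gene. Whole animals mix all tissues, so a region bound in few cells and a region bound weakly in many cannot be told apart. Read numbers are not in the sources used here, and depth is therefore unknown.

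A transcription start site (TSS) is where the copying of a gene into RNA begins. In flies, active promoters usually have a stretch poor in nucleosomes just upstream of the TSS, and many regulatory proteins bind there or in introns, where enhancers are common. The prepupa is the short stage in which pulses of the steroid hormone ecdysone start the replacement of larval by adult tissues. A peak's summit is the base of highest signal, and the gene whose TSS lies nearest to it is given only as a position, since it need not be the gene that is regulated.

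The sequence at the summits is shown first, since base composition and position are the measures that the selection did not use. Each window reaches 50 bases either side of a summit in the dm6 build, read 5′ to 3′, with the longest run made only of A and T in capitals. The first windows belong to the peaks ranked 1 to 5 by signal.
Ugalt (chrX:2703835-2703935, plus strand): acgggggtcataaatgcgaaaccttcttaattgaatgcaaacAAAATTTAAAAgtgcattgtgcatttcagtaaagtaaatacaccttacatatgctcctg
CG14100 (chr3L:19590557-19590657, plus strand): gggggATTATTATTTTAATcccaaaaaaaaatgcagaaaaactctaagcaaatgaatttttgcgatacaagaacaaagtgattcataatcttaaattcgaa
cbt (chr2L:481009-481109, plus strand): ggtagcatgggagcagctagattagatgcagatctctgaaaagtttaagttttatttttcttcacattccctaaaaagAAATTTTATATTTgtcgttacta
CG11050 (chr2L:6612654-6612754, plus strand): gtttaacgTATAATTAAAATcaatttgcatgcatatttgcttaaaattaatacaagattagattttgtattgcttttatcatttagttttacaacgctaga
CenG1A (chr2L:13835404-13835504, plus strand): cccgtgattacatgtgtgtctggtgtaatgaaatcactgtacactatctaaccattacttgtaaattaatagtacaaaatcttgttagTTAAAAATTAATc
In these windows A and T made up 65.3% to 77.2% of bases, and the longest runs had 11, 14, 13, 12 and 12 bases in the order shown. Ugalt encodes a UDP-galactose transporter, CG14100 and CG11050 encode uncharacterized proteins, cbt encodes the zinc finger factor Cabut, and CenG1A encodes a GTPase-activating protein for Arf. The word CTTAAA, read on either strand, occurred in the windows of CG14100, cbt and CG11050 and not in those of Ugalt and CenG1A.

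The next windows show the range of base composition among members. REPTOR, a leucine zipper factor that acts when TOR signalling is low, and Eno, which encodes the glycolytic enzyme enolase, had the highest A+T near the summit, and lncRNA:CR45643, a long noncoding RNA gene, was among the lowest.
REPTOR (chr3R:24572633-24572733, plus strand): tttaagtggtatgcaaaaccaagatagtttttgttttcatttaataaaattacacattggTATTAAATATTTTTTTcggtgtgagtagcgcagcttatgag
Eno (chr2L:1727848-1727948, plus strand): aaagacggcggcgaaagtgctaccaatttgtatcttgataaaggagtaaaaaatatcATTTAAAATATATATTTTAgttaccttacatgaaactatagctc
lncRNA:CR45643 (chr3R:16222441-16222541, plus strand): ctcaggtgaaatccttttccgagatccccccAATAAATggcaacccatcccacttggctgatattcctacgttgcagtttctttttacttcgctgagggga
Within 25 bp of the summit A+T was 86.3% at REPTOR (rank 113) and at Eno (signal 617), against 49.0% at lncRNA:CR45643 (rank 78). The summits at REPTOR and Eno lay 188 and 181 bp upstream of the nearest TSS, and the summit at lncRNA:CR45643 lay 904 bp from one, in intergenic DNA.

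The last windows belong to the 3 members farthest from any TSS, which show that the highest signals were not limited to promoters.
snoRNA:Me28S-C2789 (chr2L:21009471-21009571, plus strand): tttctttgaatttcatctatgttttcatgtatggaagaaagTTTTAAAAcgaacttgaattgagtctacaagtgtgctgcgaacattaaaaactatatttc
CG12684 (chrX:4590161-4590261, plus strand): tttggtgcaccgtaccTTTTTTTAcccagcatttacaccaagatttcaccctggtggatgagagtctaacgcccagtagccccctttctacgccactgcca
lncRNA:CR44017 (chr3R:6424069-6424169, plus strand): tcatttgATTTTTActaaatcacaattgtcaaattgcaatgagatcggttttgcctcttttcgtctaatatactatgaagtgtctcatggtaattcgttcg
The first of these summits lay 25254 bp from the small nucleolar RNA gene that names it and inside an intron of CG42238. The summit named for CG12684 lay 18282 bp away in an intron of lncRNA:CR32773. The summit named for lncRNA:CR44017 lay 14541 bp away in an intron of gpp, which encodes a histone H3 lysine methyltransferase. Their longest runs of A and T had 8, 8 and 7 bases, beside medians of 10 for all members and 9 for the other optimal peaks.

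All 250 members were found again in every replicate, although the order varied. Nearly all other optimal peaks were found as well. Of the 4996 remaining peaks, 64, 20 and 14 had no region in replicates 1, 2 and 3. A member's rank in a replicate was that of the highest region there that shared at least 1 bp with it, among 30000 regions per replicate. Of the members, 211 (84.4%) were among the 250 highest regions of replicate 1, 228 (91.2%) of replicate 2 and 228 (91.2%) of replicate 3, against 1.14%, 0.761% and 0.741% of the remaining optimal peaks. In all 3 replicates at once, 181 members were among the 250 highest, against 0.24% of the remaining peaks. A further 55 were so in 2 replicates and 14 in 1 replicate, and no member in none. Within the first 500 ranks of every replicate lay 249 members, a limit at which the remaining peaks were not counted. The members were picked from the same 3 replicates pooled, so this recovery is partly built in and was not tested, and a remaining peak can share a replicate region with a member. The worst rank of any member was 553, reached in replicate 1.

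**Figure D1:**
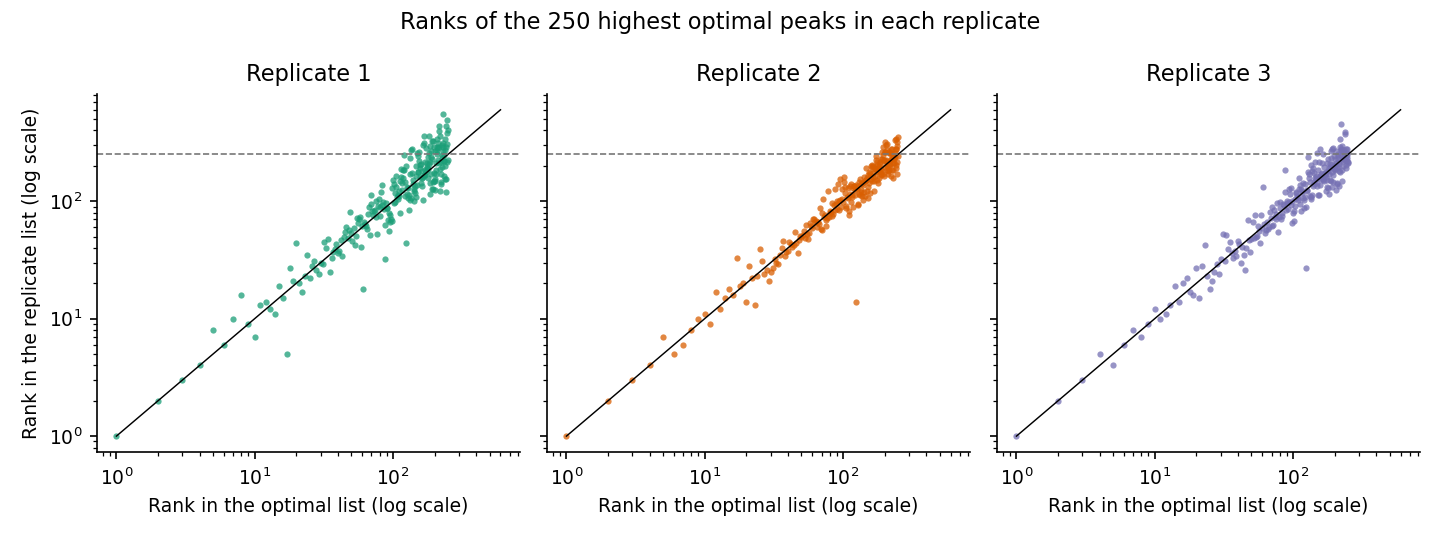
Rank of each of the 250 members in the optimal list (horizontal, log scale) against its rank in each replicate list (vertical, log scale); the line marks equal ranks and the dashed line rank 250. Points hug the line for the first ranks and spread above and below it further on, with 211, 228 and 228 points at or under the dashed line in replicates 1, 2 and 3.

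The ratio of a member's worst to its best replicate rank had a median of 1.58, and it was above 2 for 52 members. This ratio was not taken for the remaining peaks, so it describes the members and sets them apart from nothing. Steady members were not only the very highest. The signals at Ugalt, rank 1 throughout, were 747, 1272 and 1151 in replicates 1, 2 and 3. At CG14100 the signals were 488, 955 and 832, and at cbt they were 451, 814 and 791, so all 3 peaks were lowest in replicate 1. Signals are on each replicate's own scale, with medians over members of 172, 298 and 275, so only ranks are compared. Further down, mRpL23, a mitochondrial ribosomal protein gene, held ranks 108, 109 and 110. The peak of rank 170 at lncRNA:CR44619 held ranks 167, 164 and 168.

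The least steady members did not all change rank in the same way. The promoter peak of CG32772 (rank 61) held ranks 18, 71 and 131 in replicates 1, 2 and 3. The peak named for CG11362, which lies in an intron of dnr1, held ranks 5, 33 and 22. Cat, which encodes catalase, an enzyme that breaks down hydrogen peroxide, held ranks 32, 127 and 183, so it fell out of no replicate's first 250. Art3, which encodes an arginine methyltransferase, held ranks 23, 13 and 42. The peak named for CG12684 went the other way, with rank 553 in replicate 1 against 157 and 240. Replicate 1 gave the worst rank for 113 members, replicate 2 for 63 and replicate 3 for 74, where equal ranks are counted under the first replicate that holds them. The remaining peaks were not counted in this way.

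Promoters were the main location of the members. A summit within 500 bp of any annotated TSS is called a promoter summit. Of the 250 members, 137 had one (54.8%, Wilson 95% interval 48.6 to 60.9), against 37.5% of the remaining optimal peaks. In the replicate lists, taken separately, the 250 highest regions had promoter summits in 56.4%, 56.4% and 54.8%, and the regions ranked below them, down to the rank that equals the number of optimal peaks, in 38.8%, 38.1% and 40.1%. These last are called the lower-ranked regions. The groups did not overlap. The difference was 16.9 percentage points ± 1.91 (SD, n = 3), with the same direction in 3 of 3 replicates (exact sign-flip test, two-sided, p = 0.25). With 3 replicates 0.25 is the smallest p this test can give, so no comparison here can pass a threshold of 0.05. Intervals treat peaks as independent and cover counting error only. The 3 sets of 250 highest regions hold largely the same sites, since 181 members were in all of them. Position and sequence are fixed at a site. Here and below, agreement and SD over replicates therefore mainly show that similar sites ranked highest again, and not 3 independent measurements of a trait.

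The other members lay mostly in introns. Introns held 90 members (36%) against 43.3% of the remaining peaks, and intergenic DNA held 17 (6.8%) against 16.7%. Noncoding exons held 3 members (1.2%) against 1.18% of the remaining peaks. The 5′ untranslated regions held 2 (0.8%) against 0.54%, and 3′ untranslated regions 1 (0.4%) against 0.56%. No member summit lay in a coding exon outside a promoter, where 0 of 250 allows a share of up to 1.2% (3 counts), and 14 of the 4996 remaining peaks did. The median distance from a summit to the nearest TSS was 380.5 bp for members, against 1093 bp for the remaining peaks. The gene with the nearest TSS was protein-coding for 222 members (88.8%), against 82.8% of the remaining peaks. It was a noncoding RNA gene for 25 (10%) against 15.3%. The rest were 1 pseudogene, 1 snoRNA and 1 tRNA gene (0.4% each), against 0.18%, 0.22% and 1.44% of the remaining peaks.

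Member summits at promoters were mostly upstream of the TSS, and many were 100 to 200 bp from it. Of the 137 promoter summits, 112 (81.8%) lay upstream of the nearest TSS, against 75.1% of promoter summits among the remaining peaks, with median positions of 141 and 107 bp upstream. Summits from 100 to 200 bp upstream numbered 59, which is 23.6% of all members against 9.29% of the remaining peaks, and 43.1% against 24.8% of promoter summits alone. The bin from 150 to 100 bp upstream held 38 members, and the next bin towards the TSS, from 100 to 50 bp, held 5 (3.65% of the promoter summits), where the remaining peaks had 13.2%. In the replicates, 24.4%, 24.4% and 22.8% of the 250 highest regions had summits 100 to 200 bp upstream, against 9.15%, 9.57% and 9.33% of lower-ranked regions. That difference of 14.5 points ± 0.930 (SD, n = 3) had the same direction in 3 of 3 replicates (exact sign-flip test, two-sided, p = 0.25). This window was chosen after the positions had been seen.

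**Figure D2:**
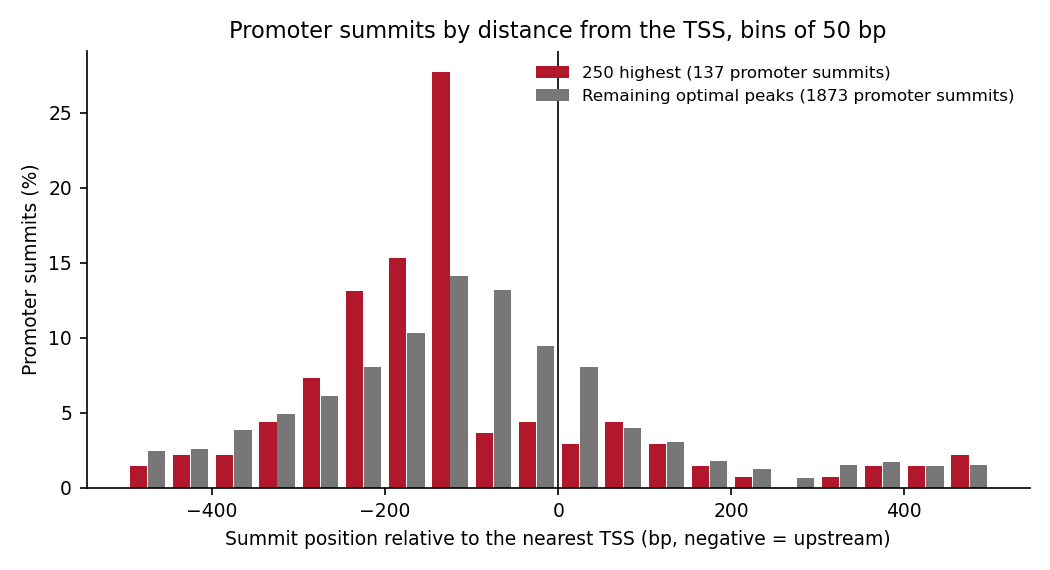
Share of promoter summits (percent, vertical) by position relative to the nearest TSS in bins of 50 bp (horizontal, negative is upstream), for the 137 promoter summits of the 250 highest peaks and the 1873 of the remaining peaks. The members rise to 27.7% between 150 and 100 bp upstream and drop to 3.65% in the next bin, while the remaining peaks are at 14.1% and 13.2%.

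The upstream position also differed from that of the peaks just below the members. Against the next 250 ranks of each replicate list, the share of summits 100 to 200 bp upstream was still 10.1 points ± 0.231 (SD, n = 3) higher among the 250 highest (exact sign-flip test, two-sided, p = 0.25). The promoter share was then 4.67 points higher, and in the optimal list it was 54.8% against 52.8%. Promoter members at 100 to 200 bp upstream had a mean A+T of 71.1% ± 8.56 (SD over 59 peaks), and the other 78 promoter members 68.4% ± 7.45 (SD over peaks), as a description with no test.

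**Figure D3:**
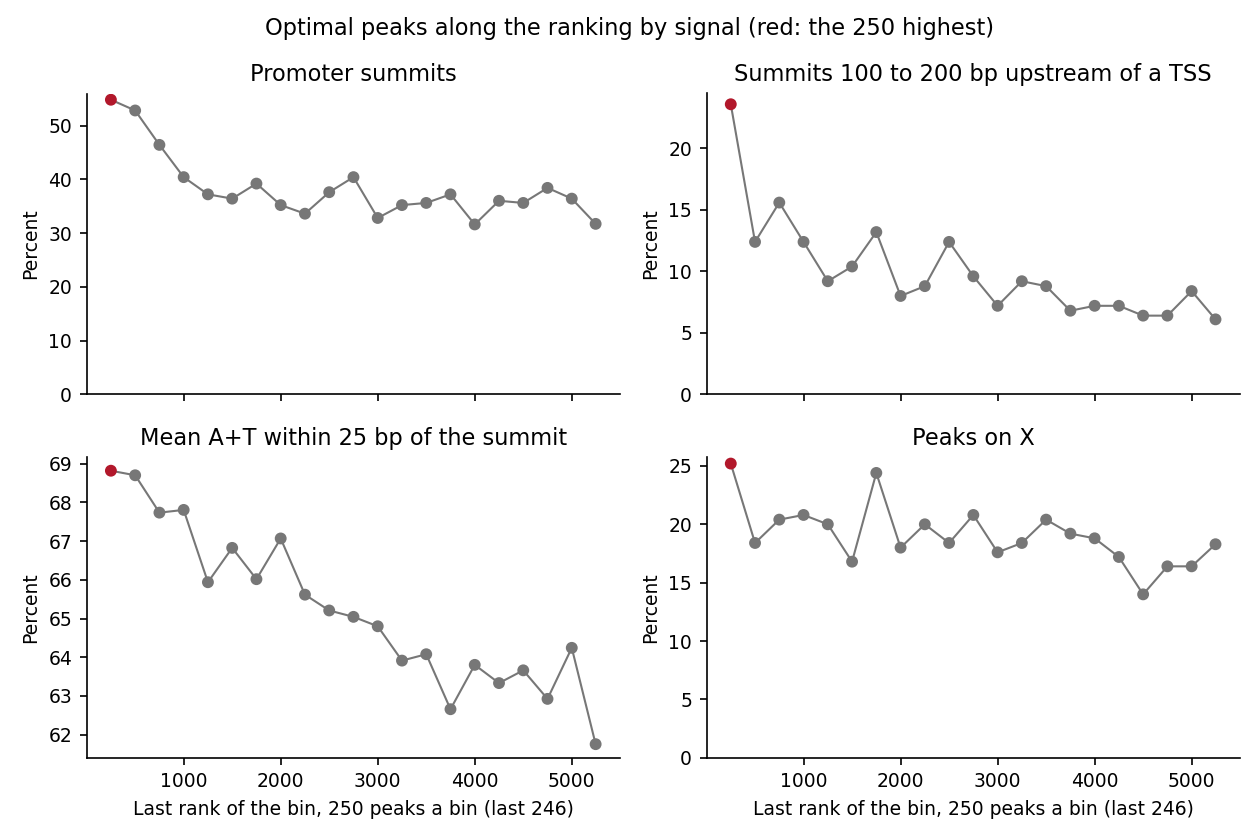
Optimal peaks in bins of 250 by signal rank (the last bin holds slightly fewer), with the last rank of each bin on the horizontal axis and percent on the vertical axis, for promoter summits, summits 100 to 200 bp upstream of a TSS, mean A+T within 25 bp of the summit, and peaks on X. The red point is the 250 highest; promoter share and A+T are nearly as high in the next bin (52.8% and 68.7%), whereas the upstream share drops from 23.6% to 12.4%.

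Some member summits lay near TSSs of more than 1 gene. TSSs of 2 or more genes lay within 500 bp of 45 member summits (18%), against 11.4% of the remaining peaks. Examples are the peaks at Tcs5 and CHMP2B, an ESCRT-III gene, at CG8320 and the peroxisome gene Pex11ab, and at Pal1 and Pdrg1. Protein-coding TSSs on both strands lay within 500 bp of 14.4% of members, against 8.61% of the remaining peaks. The replicates gave 15.6%, 16.4% and 14.4% for the 250 highest regions and 8.81%, 9.79% and 9.91% for the lower-ranked regions. The difference was 5.97 points ± 1.28 (SD, n = 3), higher in 3 of 3 replicates (exact sign-flip test, two-sided, p = 0.25).

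Summits of members were A+T-rich within GC-richer flanks. Mean A+T within 25 bp of the summit was 68.8% ± 8.02 (SD over 250 peaks), against 65.1% ± 11.6 (SD over peaks) in the remaining peaks. Only 6 members (2.4%) were below 50% A+T, against 11.6% of the remaining peaks. The 250 highest regions of replicates 1, 2 and 3 had 68.1%, 68.5% and 69.0%, and lower-ranked regions had 63.4%, 65.0% and 64.4%, so the groups did not overlap. The difference was 4.24 points ± 0.673 (SD, n = 3) in 3 of 3 replicates (exact sign-flip test, two-sided, p = 0.25). Against the next 250 ranks of each replicate list it was -0.209 points ± 0.817 (SD, n = 3), with p = 1 by the same exact test.

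The flanks carried a difference of their own. At 150 bp on either side the members' A+T was 52.5%, against 56.2% in the remaining peaks, and at 1000 bp it was 57.4% and 57.8%. The lowest point for members was 52.2% at 140 bp from the summit, and for the remaining peaks 55.0% at 260 bp on the other side. A+T at the summit minus A+T at 150 bp was 16.3 points for members and 8.83 points for the remaining peaks. Replicates gave 14.1, 16.1 and 16.1 points for the 250 highest regions and 6.62, 8.38 and 7.90 for the lower-ranked regions. The difference was 7.79 points ± 0.336 (SD, n = 3) in 3 of 3 replicates (exact sign-flip test, two-sided, p = 0.25). It fell to 1.57 points ± 0.433 (SD, n = 3) against the next 250 ranks. This contrast was chosen after the profile had been seen.

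**Figure D4:**
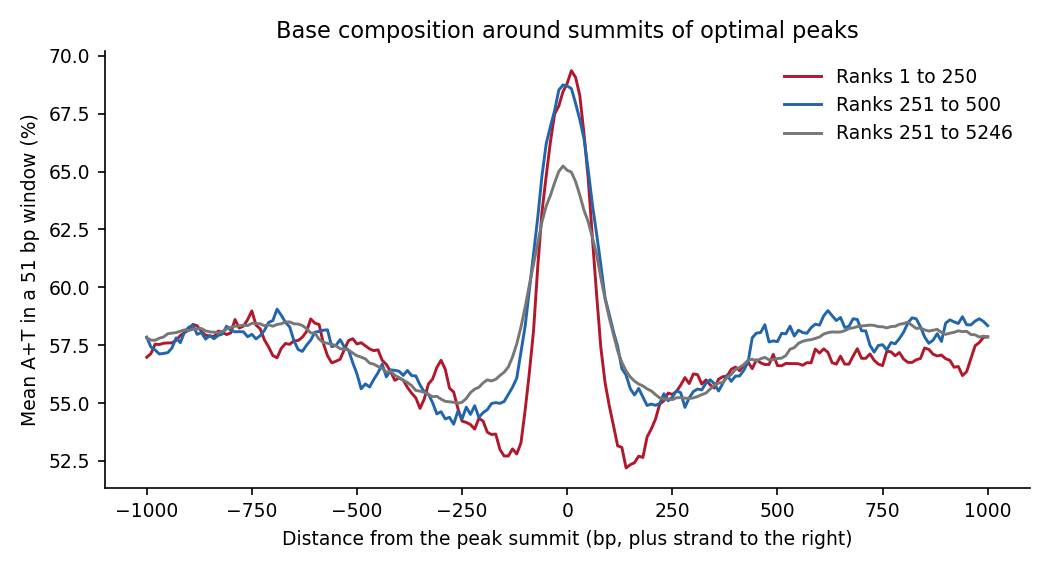
Mean A+T in 51 bp windows (percent, vertical) by distance from the summit (bp, horizontal, along the plus strand) for the 250 highest optimal peaks, the next 250 and all remaining ones. The 3 lines meet again at 1000 bp, where members have 57.4% and remaining peaks 57.8%; the members dip to 52.2% at 140 bp, below both other lines, and at the summit they reach 68.8%, beside 68.7% for the next 250.

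Composition differed with location. Promoter members had 69.5% A+T ± 8.03 (SD over 137 peaks), against 62.7% at promoter summits of the remaining peaks. Intronic members had 68.6% ± 7.69 (SD over 90 peaks) against 66.7%. Intergenic members had 64.6% ± 8.81 (SD over 17 peaks) against 66.8%, so their order was the reverse. Among promoter summits of the replicate lists the difference was 6.80 points, and among the other summits 2.36 points, each the mean of 3 replicates with the same direction in all of them. The long A/T runs printed above were not typical of members alone: runs of at least 12 bases occurred within 50 bp of the summit in 87 members (34.8%) and in 29.5% of the remaining peaks, and runs of at least 15 in 16.8% and 13.9%. The longest run among the remaining peaks had 48 bases. The longest run among members, with 27 bases, was at fws, which encodes a subunit of the Golgi tethering complex COG.

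Short words were counted as well. Of all words of 6 letters, CTTAAA, read on both strands within 50 bp of the summit, had the largest excess among members, in 63 of 250 (25.2%) against 13.9% of the remaining peaks. It was present in 22.8%, 21.6% and 24.4% of the 250 highest regions of the replicates and in 12.4%, 14.2% and 12.7% of the lower-ranked regions. Among the 192 words that, like it, hold 5 A or T letters, the median excess was 1.67 points, against its 11.3. The next word, ATTTTA, held only A and T and was in 35.2% of members against 24.3% of the remaining peaks, where the median excess of such words was 4.82 points. These words were picked for their difference among all words, so they are a description with no test. CTTAAA occurred in the windows printed for CG14100, cbt, CG11050 and REPTOR.

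For known motifs, no difference could reach the threshold with 3 replicates, and sizes are given as measured. The TATA box word TATAAA, which binds the TATA-binding protein at some core promoters, lay within 50 bp of 20.4% of member summits and 19.9% of the remaining ones. In replicates 1, 2 and 3 the difference was 4.25, 1.28 and 0.705 points, a mean of 2.08 ± 1.90 (SD, n = 3; exact sign-flip test, two-sided, p = 0.25). Of 25 motifs searched on both strands within 50 bp of the summit, 17 had the same direction in all 3 replicates, 6 higher and 11 lower among the highest regions, and the lowest p adjusted over the 25 (Benjamini-Hochberg, exact sign-flip tests) was 0.368. The GAGA repeat GAGAGAG, the site of the GAGA factor, was in 0 of 250 members, which allows a share of up to 1.2% (3 counts), against 2.26% of the remaining peaks. In the replicates it was in 0.8%, 0.8% and 0.4% of the 250 highest regions and 2.82%, 2.24% and 2.60% of the others. The ETS core CCGGAA was in 0.8% of members against 2.14%, and the homeodomain core TAATTA in 12% against 8.21%. Against the next 250 ranks of each replicate list the mean difference was -0.267 points for GAGAGAG, -0.933 for CCGGAA and 0.533 for TAATTA, beside -1.89, -1.51 and 2.57 against all lower-ranked regions. A match is only a match of letters, and its absence says nothing of a factor's binding.

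On chromosomes, the members were denser on X than elsewhere, with a spread between replicates as large as the difference. X held 63 members (25.2%) against 18.8% of the remaining peaks on the 5 large arms, which is 2.68 members per Mb. Densities were 2.08 per Mb on 2L, 1.68 on 3R, 1.60 on 3L and 1.54 on 2R, and chromosome 4 held none (9 remaining peaks). Those of the remaining peaks were 39.8 per Mb on X, 37.0 on 2L, 36.9 on 3R, 40.6 on 3L and 33.9 on 2R. The replicates did not go together. The X share of the 250 highest minus that of the lower-ranked regions was -0.419, 6.42 and 5.91 points in replicates 1, 2 and 3, a mean of 3.97 ± 3.81 (SD, n = 3; exact sign-flip test, two-sided, p = 0.5). Along the optimal list the share did not fall steadily, since the 250 peaks of ranks 1501 to 1750 had 24.4% on X.

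Some members lay close together. Within 10 kb of each other lay 31 members in 14 clusters, of which 8 clusters with 18 members were on X, 4 on 2L and 2 on 3L. The next 250 optimal peaks, counted the same way, had 29 peaks in 13 clusters, of which 3 clusters with 6 peaks were on X, where 46 of those 250 lay. Counting each cluster once left 233 sites, of which 22.7% were on X. The remaining peaks were not joined in this way, so this share has no counterpart among them. Of all members, 77.6% had another optimal peak within 10 kb that shared no base with them, against 77.3% of the remaining peaks. In the replicates, neighbours were instead sought among the 250 highest and the lower-ranked regions of the same replicate list. The differences for that share were 0.559, 3.32 and 2.28 points, a mean of 2.05 ± 1.39 (SD, n = 3; exact sign-flip test, two-sided, p = 0.25). The 250 members were 249 separate sites, since 1 interval in an intron of CG9663 (chr2L:3301972-3302603) is listed for ranks 20 and 124 with separate summits. Both take the same replicate regions, at ranks 44, 14 and 27, which places the point of rank 124 far under the line in the plot of replicate ranks.

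The largest clusters had 3 members each. Raf, which encodes the kinase between Ras and MEK, carried 3 intronic members within 3.26 kb on X, with signals of 721, 631 and 574. Their ranks were 107, 120 and 204 for the first, 269, 227 and 148 for the second and 402, 243 and 217 for the third, so only the first was in the highest 250 of every replicate. The long noncoding RNA gene lncRNA:CR44619 was the nearest gene of members with signals of 1241, 987 and 656 over 3.82 kb, the first inside lncRNA:Vinr. On 3L, 3 promoter peaks lay within 6.99 kb, at aay (958), which encodes a phosphoserine phosphatase, Shc (731), an adaptor of receptor tyrosine kinases, and Atat (619), an alpha-tubulin acetyltransferase.

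Other genes carried 2 members. Hr4, a nuclear receptor of the ecdysone cascade in a gene of 66.0 kb, had 2 intronic summits, of signal 1290 (nearest to CR46447) and 737. The peaks nearest to cbt (2119 and 882) both lay in the body of ush, which encodes a cofactor of GATA factors. Both ph-p peaks (1274 and 579) were at promoters of this Polycomb group gene, and both Ptpmeg2 peaks (978 and 686) were at promoters of this tyrosine phosphatase gene. Hsp83, the fly Hsp90 gene, had an intronic peak of 643 and a promoter peak of 620. The gene for, which encodes a cGMP-dependent protein kinase, had peaks of 922 and 810. A Cullin adaptor gene, rdx, had peaks of 662 and 610, separated by more than 10 kb as were those of for. CG32772 (1638 and 981), CG8034 (716 and 656) and lncRNA:CR45668 (963 and 651) each had 1 promoter peak and 1 intronic peak. Over all members, 236 different genes were nearest.

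The ranks from 26 to 60 lay mostly at promoters. Of these 35 peaks, 27 had promoter summits, 7 intronic and 1 lay in a noncoding exon, with signals from 984 to 1302 and no replicate rank beyond 81. At 11 of them the summit was 100 to 200 bp upstream of the TSS. Gapdh2, a glycolytic enzyme gene, had a signal of 1164, a summit 162 bp upstream and ranks 36, 38 and 46 in replicates 1, 2 and 3. Lpin (1011), the phosphatidate phosphatase lipin of fat synthesis, had a summit 250 bp upstream and ranks 65, 48 and 62. LPCAT (1048), a lysophospholipid acyltransferase, was intronic with ranks 46, 52 and 66. GstE13 (1115), a glutathione S-transferase, had ranks 55, 55 and 26. Pal1 (1201), which acts in peptide amidation, had a summit 171 bp upstream. CIA30 (1057), an assembly factor of mitochondrial complex I, had a summit 107 bp upstream of its TSS. These promoter genes also included Tcs5 (1207), for tRNA modification, MFS18 (1002), for a transporter, and Rtnl1 (1018), for a reticulon of the endoplasmic reticulum.

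Regulatory genes stood among them. Sox14 (1179), an ecdysone-induced factor of neuron pruning, had a promoter summit and ranks 39, 34 and 38. Trl (984), which encodes the GAGA factor, was bound in an intron at ranks 61, 59 and 59. HmgZ (1035), a high mobility group chromatin protein gene, was also intronic. Hpf1 (1070), the cofactor of histone PARylation, had a summit 103 bp upstream, and gish (1061), a casein kinase gene, 167 bp upstream. Tina-1 (1206) had a summit 170 bp upstream and tank (988) 149 bp downstream. Noncoding RNA genes named some peaks inside other genes: lncRNA:CR46102 (1140) within LpR2, a lipophorin receptor gene, asRNA:CR44512 (1088) within Zw, the glucose-6-phosphate dehydrogenase gene, and asRNA:CR45928 (1042) within ytr.

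The remaining peaks of these ranks were nearest to genes without a given function. Uncharacterized protein genes at promoters were CG18549 (1302), CG5098 (1256), CG8320 (1193), CG31145 (1184), CG13501 (1181), CG9147 (1172), CG8360 (1146), CG13390 (1127), CG5611 (1084) and CG11309 (1030), and those at introns were CG12769 (1280) and CG4496 (1147). CG13501 had the lowest A+T near the summit of all members, 47.1%, and it was on 2R. Over all 250 members the nearest protein-coding gene had only a CG number for a symbol in 28%, against 28.6% of the remaining peaks. The replicate differences were 0.738, 1.54 and 1.84 points, a mean of 1.37 ± 0.568 (SD, n = 3; exact sign-flip test, two-sided, p = 0.25). The mean was 7.72 points when the 100 highest were taken and -1.20 points against the next 250 ranks.

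Gene groups were counted by nearest gene over 20 lists, with 44 members in at least 1 list and 206 in none. A further gene with a TSS near the same summit, or with the summit inside its body, was not counted, in members or in remaining peaks. The summit in Hr4 that is nearest to CR46447, for example, is in no list. Each count was small, lists overlap, and no test was made on a list, so shares are printed only beside those of the 4996 remaining peaks. Signalling lists came first. The EGFR, Ras and MAPK list had 6 members (2.4%) against 1.56% of remaining peaks, with the 3 Raf peaks, puc (664), a JNK phosphatase, edl (627), an antagonist of ETS factors, and bun (603), a TSC-22 family gene. The list of growth, insulin and TOR signalling had 4 (1.6%) against 0.721%, which were Lk6 (1728), a kinase of the initiation factor eIF4E, Sesn (815), an inhibitor of TOR signalling, Myc (713) and sima (579), the hypoxia factor. The sugar sensing and metabolism list had 5 (2%) against 0.881%, with both cbt peaks, Lk6, REPTOR (773) and Atf3 (675), a leucine zipper factor. The Hippo and Fat list had 3 (1.2%) against 0.62%, which were ds (903), a giant cadherin, Fbxl7 (665) and bun. The Notch list had 2 (0.8%) against 0.48%, neur (759), a ubiquitin ligase for Delta, and gro (751), a corepressor.

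Nuclear regulators were also present in small numbers. The ecdysone response list had 4 members (1.6%) against 1.14%, which were Sox14, ImpL2 (749), a secreted binder of insulin-like peptides, Hr4 (737) and Eip75B (613), a nuclear receptor. The chromatin regulator list had 4 (1.6%) against 0.741%, with both ph-p peaks, trx (666), a histone methyltransferase, and Psc (653), of the Polycomb group. Of insulator and architectural genes, 3 (1.2%) against 0.2% were found, at Chro (1597), Trl and the histone kinase gene JIL-1 (602). BTB zinc finger genes had 1 (0.4%, Trl) against 0.901%, and C2H2 zinc finger and KLF genes had 2 (0.8%, both cbt) against 1.72%.

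Counts for protein synthesis and folding were as small. Cytosolic ribosomal protein genes had 1 member, RpS27 (signal 601, ranks 141, 163 and 450), which is 0.4% against 1.1% of remaining peaks. Mitochondrial ribosomal protein genes had 2 (0.8%), mRpL41 (1475) and mRpL23 (788), against 0.02%, which is 1 remaining peak. The promoter summits named for CenG1A and Art3 also had TSSs of mRpS23 and mRpS10 within 500 bp. Such second genes are left out of both shares. Translation factors had 1 (0.4%), larp (1825), against 0.3%. Heat shock and chaperone genes had 3 (1.2%), Hsp27 (1397) and both Hsp83 peaks, against 0.1%. No member was nearest to a proteasome gene (0.1% of remaining peaks), a cuticle protein gene (0.2%) or a gene of cell death and autophagy (0.38%).

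Structural and nervous system genes had few members. Actin, myosin and adhesion genes had 2 (0.8%), the integrin gene mew (655) and the myosin VI gene jar (600), against 1.58%. Small GTPase genes and their regulators had 3 (1.2%), CenG1A (1843), RapGAP1 (625) and RhoGAP18B (615), against 1.22%. Nervous system genes had 3 (1.2%), moody (612), a receptor of the glial blood-brain barrier, elav (612), a neuronal RNA-binding protein gene, and sgg (604), the fly GSK-3 gene, against 0.901%. The gene CG7368 itself was nearest to no member.

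Member regions also differed in width, which the peak caller sets and which moves with rank. Their median width was 306 bp, from 225 to 766, and none had the width of 416 bp that 80.2% of the remaining peaks shared. Median widths were 245, 207 and 192 bp in the next 3 bins of 250 ranks and 416 bp beyond. Position, base composition, words and motifs were therefore measured from summits rather than over whole regions. Replicate ranks, neighbours, clusters and separate sites used whole regions. The part of width in the other differences was not tested.

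**Figure D5:**
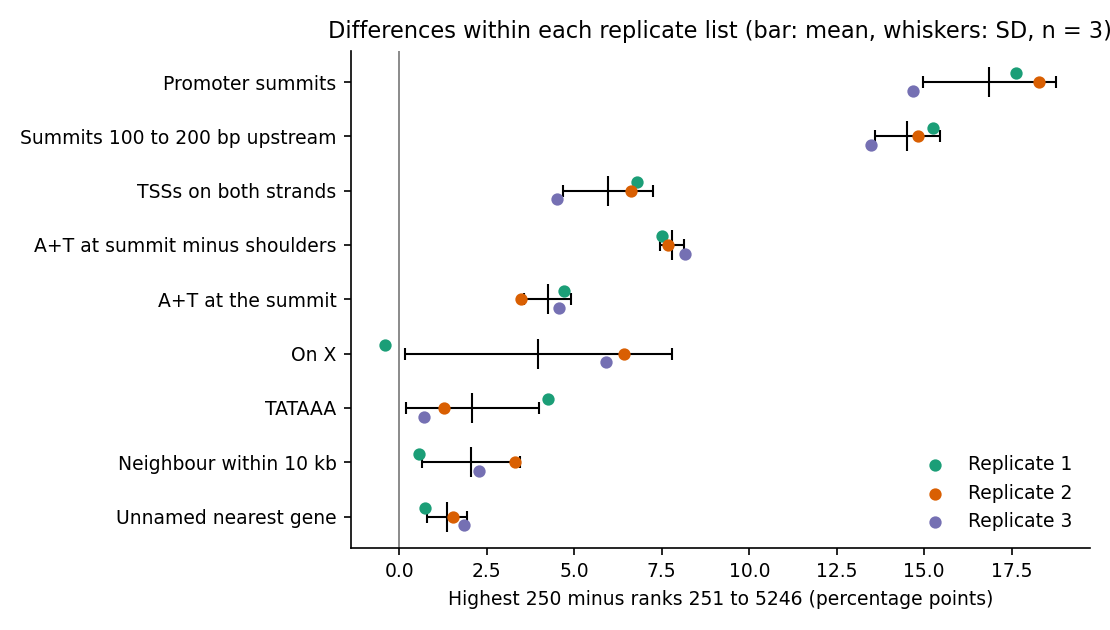
Difference between the 250 highest regions and the lower-ranked regions within each replicate list (percentage points, horizontal) for the 9 measures; points are replicates, the bar is their mean and whiskers are the SD (n = 3). Promoter share, upstream share, TSSs on both strands, A+T against the flanks and A+T at the summit have means of 16.9, 14.5, 5.97, 7.79 and 4.24 points. TATAAA, neighbours and unnamed genes have smaller means of 2.08, 2.05 and 1.37. All of these are above 0 in all 3 replicates, while the X share spans -0.419 to 6.42. Against the next 250 ranks, which are not drawn, the mean for A+T at the summit was -0.209.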

How the data were processed

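Peak lists from ChIP-seq of 3 biological replicates were used as the authors deposited them, in dm6 coordinates, with dm3 lists for alternatives only. Per the labels, chromatin was sonicated to 200 to 800 bp. Each list gives a signal and a −log10 q-value per region, deposited by the authors from their peak caller. Per the descriptions deposited with the files, replicate and pooled lists (30000 regions each) were input for the irreproducible discovery rate procedure, which left 5246 optimal peaks, the highest of the pooled list. The sources used here name no caller, aligner, signal formula or read numbers, and depth is unknown.

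Optimal peaks were ranked by signal. All 250 members share the highest −log10 q, 3.94, with 4329 optimal peaks in all. Starts were converted to 1-based positions, and all 125246 dm6 regions end inside the chromosomes of the reference. Genes came from Ensembl release 115 without transposable elements (18358 genes, 13986 protein-coding), sequence and product names from RefSeq for the same assembly. A+T was measured in 51 bp and words within 50 bp of the summit. Of the gene list entries, 58 matched no gene.

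Each replicate's 250 highest regions were compared with its lower ranks down to 5246, and the 3 differences were tested by an exact two-sided sign-flip test, whose smallest p is 0.25. The same difference in the optimal list is a description. Regions of 1 animal pool are not replicates. The labels call the samples biological replicates of 1 line. The replicate lists and the optimal list share reads, so they are not independent of each other. The 3 replicate lists also share most of their highest sites, so the SD between them is not that of separate sets of sites. Members, lists, motifs and measures were chosen with earlier results of these data known. Named genes are those nearest to ranks 26 to 60, the 3 highest of each gene list, genes with 2 or more members, the 5 steadiest and 5 least steady members, those around the threshold, and the extremes of A+T and distance; other names were chosen after their values were seen. Alternatives varied the number of members, the comparison group, the ranking (by −log10 q), windows, build, merging and replicates. The promoter, upstream, A+T, X, TATAAA and neighbour measures were tested on simulated data with known answers. Ranks by overlap, merging and the sign-flip test were checked in the same way. The other measures, words and motifs were not. Python 3.11.15, NumPy 2.4.6, SciPy 1.17.1 and Matplotlib 3.10.9 were used.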

Additional observations from a re-analysis of the deposited data

How the results depend on the processing

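Of 77 replicate differences recomputed with other members, comparison groups, windows, builds or merging, 73 kept their direction. Ranking by −log10 q, which picks the same 250 members, and leaving out 1 of 3 replicates that all go 1 way could hardly change a direction and are not counted in these. The 4 that changed direction all compared with the next 250 ranks: A+T at the summit (-0.209), a neighbour within 10 kb (-0.667), TATAAA (-0.40) and unnamed genes (-1.20 points). Leaving out 1 replicate gave 16.2 to 17.9 points for promoter summits, 5.55 to 6.70 for TSSs on both strands, 4.01 to 4.63 for A+T, 1.42 to 2.80 for neighbours, 2.75 to 6.17 for X, 0.995 to 2.77 for TATAAA, 1.14 to 1.69 for unnamed genes, 14.2 to 15.04 for the upstream share and 7.60 to 7.92 for A+T against the flanks. With 2 replicates the smallest exact sign-flip p is 0.5.

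Differences within the optimal list moved by more than the SD between replicates in these cases. The promoter share, 17.3 points, was 22.1 with 100 members, 2.0 against the next 250 ranks, 14.9 against the stronger remaining peaks (those above the median rank), 14.5 within 250 bp and 20.5 within 1000 bp. TSSs on both strands, 5.79, gave 9.29 with 100 members, 2.80 against the next 250 ranks and 3.70 against the stronger remaining peaks. A+T, 3.76, gave 0.118 against the next 250 ranks, 2.14 against the stronger remaining peaks, 0.679 within 100 bp, 6.81 at promoter summits and 1.49 elsewhere. Neighbours, 0.298, gave 2.33 within 5 kb. Unnamed genes, -0.563, gave 6.59 and 2.06 with 100 and 500 members, -4.80 against the next 250 ranks and 2.43 at TSSs within 500 bp. The upstream share, 14.3, gave 18.4 and 8.88 with 100 and 500 members, 11.2 against the next 250 ranks, 12.2 against the stronger remaining peaks and 18.3 at promoter summits. A+T against the flanks, 7.46, gave 8.01 and 6.23 with 100 and 500 members, 2.94 against the next 250 ranks, 5.49 against the stronger remaining peaks, 7.01 with overlapping intervals merged, 11.5 at promoter summits and 5.03 elsewhere. Of the motifs, GAGAGAG, -2.26, gave -0.80 against the next 250 ranks and -1.64 against the stronger remaining peaks, and CCGGAA, -1.34, gave -0.970 with 500 members, -0.80, -1.73 and -0.987 against the next 250 ranks, the stronger remaining peaks and with intervals merged. The causes were not tested. Of the members, 72.4% were in the highest 250 of all replicates, from 60.4% to 83.6% over alternatives, with 76.4% to 83.6% without 1 replicate.

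No paired analysis between groups was possible because the series has 1 group; each test already compares regions within a replicate. Unknown depth and 3 replicates limit every comparison.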
